A study of Mus musculus with 8 samples.

Results

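The genes described here encode the proteins of the cytosolic ribosome, in J774A.1 cells, a mouse macrophage cell line, given lipopolysaccharide (LPS) alone or LPS with ursodeoxycholic acid (UDCA). LPS, a glycolipid of the outer membrane of Gram-negative bacteria, switches macrophages to an inflammatory state, and UDCA is a bile acid that gut bacteria produce. Members were taken by gene symbol, as large subunit (Rpl, Rplp) or small subunit (Rps, Rpsa) names, with a mean of at least 1 TPM. TPM is the share of a transcript in a library, corrected for its length and scaled to the same total in every library. Of 83 matching symbols, 78 reached that level, 47 of the large and 31 of the small subunit, among 11796 genes tested and 55487 genes listed. One group of 4 libraries had 1 μg/mL LPS for 24 h, and the other group of 4 had the same LPS with 1 mM UDCA for 24 h. Cells without LPS were not analysed here, so every comparison is between levels under LPS, in a single cell line.

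A cytosolic ribosome is built from a small subunit, which reads the mRNA, and a large subunit, which joins amino acids, each with many proteins bound to ribosomal RNA. Most of these proteins are needed in equal numbers, and unassembled copies are degraded. Their mRNAs are among the most abundant in a dividing cell and usually begin with a run of pyrimidines, the 5′ terminal oligopyrimidine (TOP) tract, through which mTORC1 and LARP1 control their translation.

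That tract was looked for in RefSeq start windows of GRCm38.p6, in which 58 of the 78 members had 70 windows. A run of at least 5 C or T from the annotated first base stood in 16 of the 70 windows (22.9%), against 4.44% of all 32851 windows and 1 of 75 windows (1.33%) of mitochondrial ribosomal protein genes. An annotated first base can differ from the one used in these cells, so a window without the run says only that these letters do not start there. The windows shown are those of the 5 members that have the run, in capitals, among the genes named by rule, and Rps27l, the member with the highest fold change as deposited, which has none at this start. Each holds 15 bases before and 15 bases from the first base, read 5′ to 3′ on the gene's strand.
Rpl15, chr14:18270972-18271001, minus strand: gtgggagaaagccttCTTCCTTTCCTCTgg
Rplp2, chr7:141447636-141447665, plus strand: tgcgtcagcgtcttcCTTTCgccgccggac
Rps6, chr4:86857353-86857382, minus strand: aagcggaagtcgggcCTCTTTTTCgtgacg
Rps15a, chr7:118116133-118116162, minus strand: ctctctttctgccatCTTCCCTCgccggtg
Rps27, chr3:90213634-90213663, minus strand: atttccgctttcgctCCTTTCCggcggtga
Rps27l, chr9:66946071-66946100, plus strand: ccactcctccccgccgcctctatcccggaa
Of the 16 genes with the run, 3 were called higher, 7 lower and 6 were not called, a called share of 62.5% beside 61.5% of all members and 72.5% of all genes tested. Among those shown, Rpl15 and Rplp2 fell, Rps15a and Rps27 rose, and Rps6 was not called. In the full windows of 300 bases, searched on both strands, the ETS factor motif CCGGAAG occurred in 35.7% of member windows, 34.7% of mitochondrial ribosomal protein windows and 8.86% of all windows. The YY1 motif GCCATNTT occurred in 21.4%, 28% and 6.05% of the same sets. The E-box CACGTG, the motif of MYC and its partner MAX, occurred in 11.4%, 9.33% and 7.15%. TATAAA occurred in 8.57%, 6.67% and 13.6%. In the windows of all genes tested the shares were 19.1% for CCGGAAG, 9.09% for GCCATNTT, 10.3% for CACGTG and 6.96% for TATAAA.

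The libraries stood as follows. The listed genes held 973190 to 977485 TPM per LPS library and 958918 to 962737 TPM per UDCA library, and 0 of 28 pairs of libraries held identical values. TPM keeps no read number, so the depth is unknown and the errors are the spread between libraries. Transcripts encoded in mitochondrial DNA took 1.21% to 1.53% and 1.09% to 1.43%. All 10 macrophage markers were at or above 1 TPM, with summed levels of 4842 to 5130 TPM in LPS libraries and 2505 to 2830 TPM with UDCA. Of the T cell, epithelial, fibroblast and erythroid lists 0 genes reached 1 TPM, of the B cell list 1 of 5, and of the neutrophil list 2 of 5, with summed neutrophil levels of 18.64 to 25.44 TPM and 2.72 to 9.03 TPM. Elane and Ly6g of that list were at 0, and the part of these levels in the results below was not tested.

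Ribosomal protein mRNAs held close to their LPS level with UDCA. Of the 78 members, 17 rose, 31 fell and 30 were not called (limma, Benjamini-Hochberg FDR under 0.05 over all genes tested), a called share of 61.5% where 72.5% of all genes tested were called. No member passed a fold change of 2 as well, where 17.1% of all genes did. The median size of the change was 0.12 on the log2 scale (8.87%) over the members and 0.47 (38.7%) over all genes. It was 0.27 (21%) over the 78 mitochondrial ribosomal proteins, which build the separate ribosome of mitochondria. The sets were not matched for level, and genes of similar TPM were not compared. As listed, members other than Rpl3l had a median of 2157 TPM, while all genes were tested from a mean of 1 TPM. Of the members, 45 stayed within 10% of their LPS mean, 3 rose by at least 20%, 1 of them not called, and 1 fell by at least 20%. The groups did not overlap in 45 members (57.7%), against 66.8% of all genes. Because TPM is a share of the RNA in a bulk sample, a change in the number of cells, or in all mRNA of a cell alike, cannot be seen.

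The balance of rises and falls depended on the scaling. The median log2 fold change of the members was -0.05 with TPM as deposited and -0.13 after median-of-ratios scaling, but 0.04 with quantile normalization and 0.01 after a correction for GC content. The calls were 17 higher and 31 lower with TPM as deposited, where 40.2% and 32.3% of all genes tested were called higher and lower. After median-of-ratios scaling 4 members were higher and 41 lower, against 36.4% and 36.4% of all genes (72.7% in all). Under quantile normalization 27 were higher and 24 lower, against 38.8% and 34.2% (72.9% in all), and with the GC correction 28 were higher and 18 lower, against 40.4% and 30.4% (70.8% in all). The 2-fold background was 16.8%, 16.6% and 15.6% in these 3, with 0 members past it. Under all 21 alternatives 4 members kept their call as higher, Rpl17, Rpl30, Rpl4 and Rps27l, and 9 kept their call as lower, among them Rps9, Rpl8, Rpl15, Rpl13a, Rpl37a, Rps3, Rps16 and Rpsa. Rpl37a and Rps16 were chosen for this after their values were seen.

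**Figure D1:**
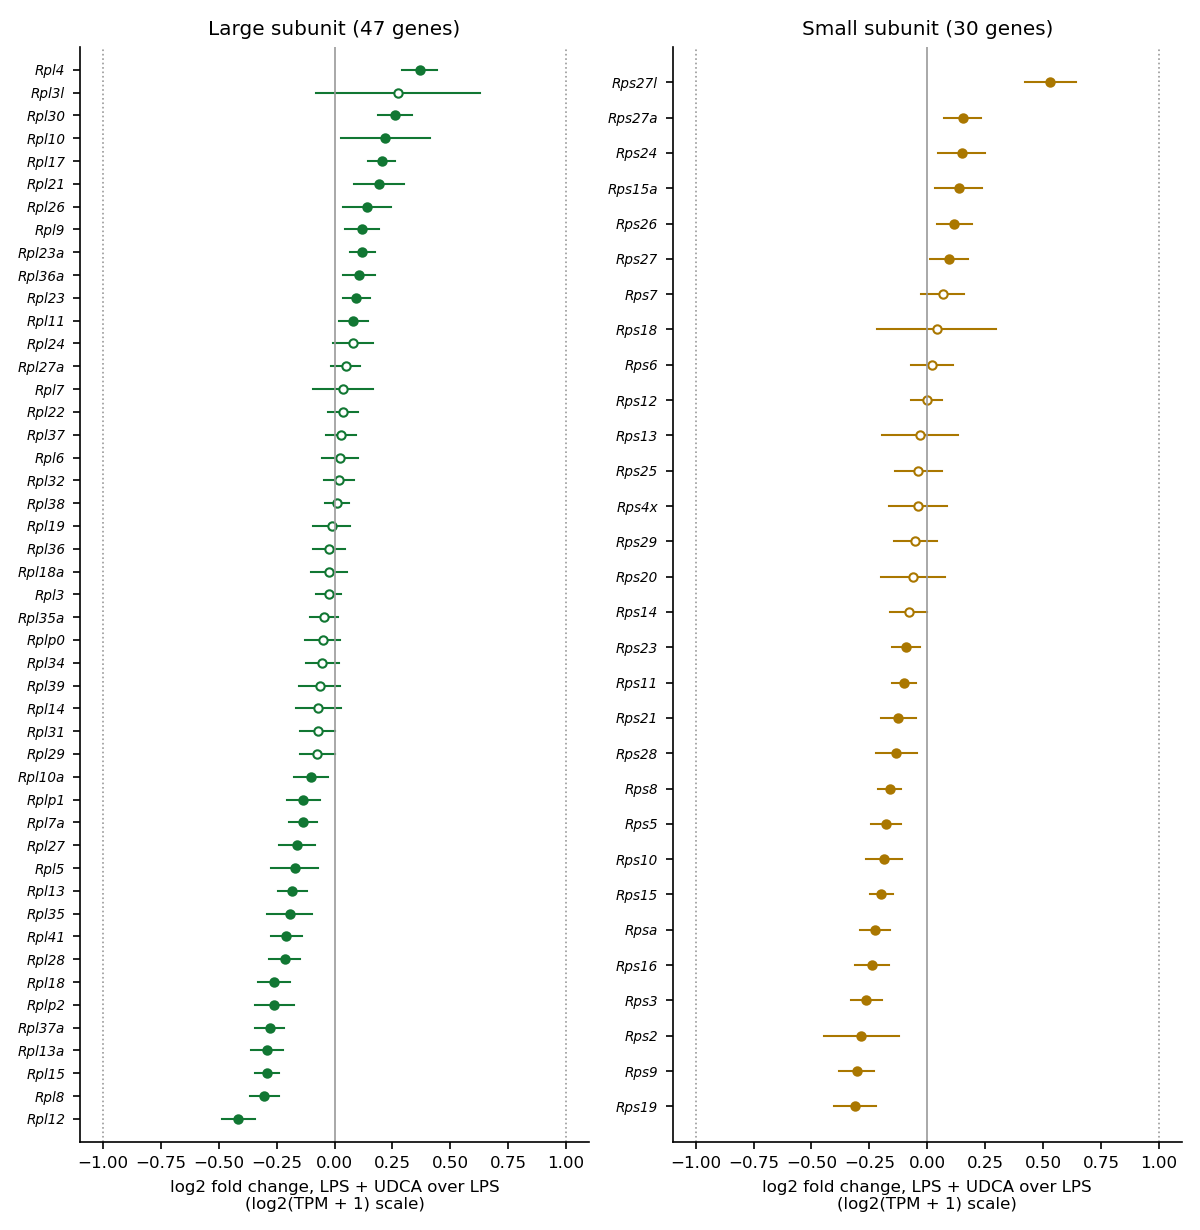
Log2 fold change, LPS + UDCA over LPS on the log2(TPM + 1) scale, of 77 large and small subunit members, with 95% intervals from limma (filled points: FDR under 0.05, dotted lines: 2-fold). All 77 points lie between the dotted lines, from -0.42 for Rpl12 to 0.53 for Rps27l, and the median of -0.05 turned to 0.04 with quantile normalization and 0.01 with the GC correction.

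Rps27l had the largest change with TPM as deposited, though not after median-of-ratios scaling, where Rpl12 changed more (-0.49 against 0.45), nor after the GC correction. It encodes a paralogue of the zinc finger protein Rps27 and is known as a p53 target gene. Rps27l (ENSMUSG00000036781, chromosome 9, 66946086 to 66949516 on GRCm38) was listed at 807, 916, 905 and 954 TPM in LPS replicates 1 to 4 while the UDCA replicates 1 to 4 stood at 1308, 1299.9, 1255 and 1304 TPM. Every UDCA library was above every LPS library. Its log2 fold change of 0.53 had an SE (standard error) of 0.048 and an adjusted p of 9e-06 by limma. After the GC correction it was 0.27 and still called, with Rpl3l (0.46), Rpl4 (0.32), Rpl26 (0.31) and Rpl21 (0.30) above it. Its partner Rps27, the most abundant small subunit mRNA as listed, went from 6144 ± 313 TPM under LPS to 6553 ± 86.8 TPM with UDCA (SD, n = 4). With copies, described below, added to each gene, Rps28 was the highest of the small subunit at 7440 TPM. The groups overlapped for Rps27 (log2 fold change 0.09, adjusted p = 0.042 by limma), and its adjusted p was 0.063 to 0.092 without LPS replicate 1 or 2 or any single UDCA library. Rps27 was also not called with median-of-ratios scaling (0.02, adjusted p = 0.80) or quantile normalization (0.04, adjusted p = 0.35). With the GC correction it was called higher (0.14, adjusted p = 0.0045 by limma). As a percent of Rps27, Rps27l stood at 14.1, 15, 14.4 and 14.8 in LPS replicates 1 to 4 and at 20.3, 19.5, 19.1 and 19.9 with UDCA, with no overlap. Both values of a pair come from the same library, so multiplying a library by any factor leaves that percent unchanged. The GC correction is not such a factor, and after it the log2 fold changes were 0.27 for Rps27l and 0.14 for Rps27.

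The other large rises were in the large subunit. Rpl4, whose protein lines the exit tunnel of the nascent chain, was listed at 2347, 2426, 2429 and 2496 TPM with LPS and at 3040.0, 3017, 3255 and 3211 TPM with UDCA. The groups lay far apart (log2 fold change 0.37, SE 0.033, adjusted p = 8.7e-06 by limma). Rpl30 was at 659, 686, 689.7 and 726 TPM with LPS and at 827, 822, 833 and 825 TPM with UDCA. It rose by 19.8%, with LPS libraries more spread than UDCA libraries (log2 fold change 0.26, adjusted p = 6.4e-05 by limma, and 0.41 with quantile normalization). Copies of Rpl30, described below, held 72.9% of its merged TPM, and with them added the value was 0.21 (adjusted p = 0.0011 by limma). Rpl17 went from 1969 ± 44.9 to 2266 ± 40.6 TPM without overlap (log2 fold change 0.20, adjusted p = 9.4e-05 by limma), and its value was 0.12 with median-of-ratios scaling, and 0.10 once GC content was corrected for. Rpl10, one of the last proteins added to the large subunit, had 973.8 ± 119 and 1129 ± 68.8 TPM with overlap (log2 fold change 0.22, adjusted p = 0.043 by limma). Its adjusted p was 0.059 to 0.11 without LPS replicate 1 or 2 or without UDCA replicate 1, 3 or 4, and also 0.059 in a fit with a replicate block. With median-of-ratios scaling Rpl10 had a log2 fold change of 0.14 (adjusted p = 0.24). These values are of its own row, while its copies, described below, held 69.2% of its merged TPM. With copies added Rpl10 went from 3277 ± 149 to 3555 ± 47.4 TPM without overlap (log2 fold change 0.12, adjusted p = 0.011 by limma).

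Falls were seen in both subunits. Rps19, a gene mutated in Diamond-Blackfan anaemia, was listed at 1706, 1918, 1928 and 1861 TPM with LPS and at 1529, 1472, 1461 and 1504 TPM with UDCA. All UDCA libraries were below all LPS libraries (log2 fold change -0.31, SE 0.041, adjusted p = 9.9e-05 by limma), but the value was -0.10 and no longer called after the GC correction (adjusted p = 0.066). Rps9, a protein of the small subunit body, was at 3683, 3922, 3798 and 3716 TPM with LPS and at 3171, 3138, 2989 and 2948 TPM with UDCA (log2 fold change -0.30, adjusted p = 2.9e-05 by limma). Rpl8, a protein near the peptidyl transferase centre, was at 3839, 3772, 3808 and 3669 TPM with LPS and at 3105, 3116, 3060.5 and 2940.4 TPM with UDCA (log2 fold change -0.30, adjusted p = 8.7e-06 by limma). Neither gene overlapped between groups, and with the GC correction the fall was -0.15 for Rps9 and -0.10 for Rpl8, both still called. Rpl15 was at 1354, 1387, 1379 and 1369.7 TPM with LPS and at 1128, 1104, 1116 and 1134 TPM with UDCA. Its spread between libraries was small beside the 18.4% difference (log2 fold change -0.29, SE 0.023, adjusted p = 3.1e-06 by limma), and the value was -0.15 with the GC correction. Rpl12, a protein at the base of the stalk, had the lowest value, from 112.4 ± 2.38 to 84.07 ± 0.902 TPM (log2 fold change -0.42, adjusted p = 2.8e-06 by limma). That fall was not seen once its copies were added, as described below.

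**Figure D2:**
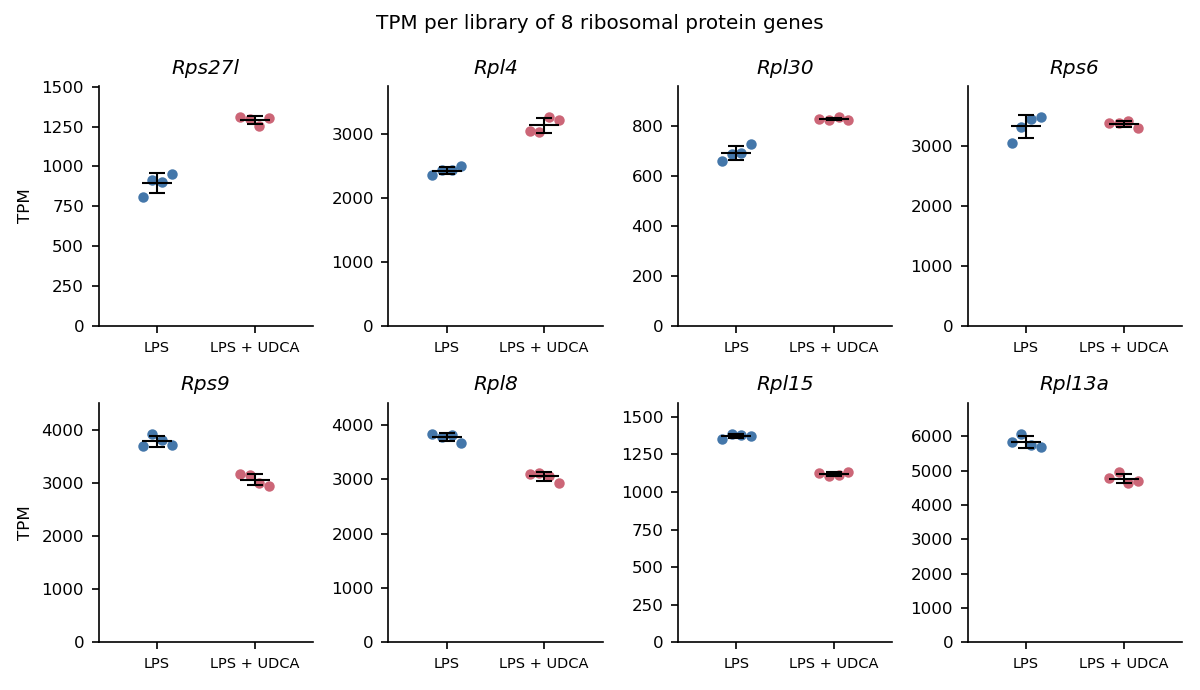
TPM in each library for Rps27l, Rpl4 and Rpl30, which rose, for Rps6, which was not called, and for Rps9, Rpl8, Rpl15 and Rpl13a, which fell, with bars for the mean and SD of 4 libraries. The axes start at 0, the 7 called genes do not overlap between groups, and Rps6 overlaps at 3323 ± 191 and 3369 ± 48.9 TPM.

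The P-stalk proteins and the members most abundant as listed included genes of each call. The stalk proteins recruit elongation factors to the large subunit. Rplp1, the most abundant member, was at 11671, 12193, 12155 and 11463 TPM with LPS and at 11154, 10947, 10749 and 10386 TPM with UDCA. It lay lower in every UDCA library (log2 fold change -0.14, adjusted p = 0.0036 by limma), but its value was 0.03 with quantile normalization and 0.07 with the GC correction. Rplp2 fell from 2155 ± 66.3 to 1799 ± 76.6 TPM (log2 fold change -0.26, adjusted p = 0.00017 by limma). With the GC correction its value was -0.09, and with the replicate block as well it was no longer called (adjusted p = 0.084). Rplp0, the scaffold of the stalk, had 3671 ± 28.2 and 3545 ± 158 TPM and was not called (log2 fold change -0.05, 95% interval -0.13 to 0.02), but it was called lower with median-of-ratios scaling (-0.13, adjusted p = 0.019) and higher with the GC correction (0.13, adjusted p = 0.00039). Rpl32 had 4968 ± 116 and 5035 ± 136 TPM and was not called (log2 fold change 0.02, 95% interval -0.04 to 0.08), but it was called higher with quantile normalization (0.12, adjusted p = 0.026) and the GC correction (0.08, adjusted p = 0.023). In the small subunit, Rps15, a protein near the decoding site, fell from 4973 ± 55.8 to 4335 ± 70.8 TPM (log2 fold change -0.20, adjusted p = 3.9e-05 by limma), with -0.10 after quantile normalization and 0.01 after the GC correction. Rps15a had 4738 ± 218 and 5205 ± 269 TPM (log2 fold change 0.14, adjusted p = 0.023 by limma). Its groups overlapped, and its adjusted p was 0.055 to 0.068 without LPS replicate 1 or 2 or without UDCA replicate 1, 3 or 4. Its value was 0.06 with median-of-ratios scaling (adjusted p = 0.44), and 0.03 once GC content was corrected for (adjusted p = 0.54).

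Members with described functions away from the ribosome did not share a direction. Rpl13a, which in myeloid cells can leave the ribosome to join a complex that silences inflammatory mRNAs, was at 5822, 6068, 5748 and 5675 TPM with LPS and at 4789, 4949, 4645 and 4681 TPM with UDCA. No UDCA library reached the LPS range (log2 fold change -0.29, SE 0.031, adjusted p = 2.4e-05 by limma), and the value was -0.11 with the GC correction. Rps3, which also binds the p65 subunit of NF-κB, was at 3110.2, 3301, 3343 and 3253 TPM with LPS and at 2704, 2768, 2627 and 2736 TPM with UDCA. The fall was of the same order as that of Rpl13a (log2 fold change -0.26, adjusted p = 4e-05 by limma), and stood at -0.28 with the GC correction. Rpsa, known as the laminin receptor precursor, fell from 2769 ± 44.9 to 2369 ± 78.4 TPM (log2 fold change -0.23, adjusted p = 9.8e-05 by limma), with -0.09 after the GC correction. Rps27a, made as a fusion with ubiquitin, rose from 1579 ± 64 to 1755 ± 50 TPM (log2 fold change 0.15, adjusted p = 0.0037 by limma), but was not called with median-of-ratios scaling (0.07, adjusted p = 0.21). Rpl26, which binds the p53 mRNA, rose from 2243 ± 93.1 to 2473 ± 139 TPM (log2 fold change 0.14, adjusted p = 0.02 by limma), with an adjusted p of 0.052 without LPS replicate 1 and 0.051 without UDCA replicate 3. Its value was 0.06 with median-of-ratios scaling (adjusted p = 0.37), and 0.31 once GC content was corrected for. Copies of Rpl26, described below, held 54.6% of its merged TPM. With them added Rpl26 was not called (log2 fold change 0.08, adjusted p = 0.098 by limma). Rps6, the substrate of S6 kinase, was at 3054, 3321, 3441 and 3476 TPM with LPS and at 3378, 3385, 3413 and 3299 TPM with UDCA, fully overlapping (log2 fold change 0.02, 95% interval -0.07 to 0.11). Rpl22 was not called either (log2 fold change 0.04, 95% interval -0.03 to 0.10). With quantile normalization both were called higher, Rps6 with 0.13 (adjusted p = 0.0022) and Rpl22 with 0.11 (adjusted p = 0.0016).

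The 5S RNP proteins Rpl5 and Rpl11 join the 5S ribosomal RNA and, when unassembled, bind Mdm2 and release p53. Rpl11 was at 1609, 1683, 1706 and 1679 TPM with LPS and at 1781, 1723, 1785 and 1776 TPM with UDCA. It rose by 5.8% without overlap (log2 fold change 0.08, adjusted p = 0.022 by limma), with an adjusted p of 0.055 without UDCA replicate 1 or 3 and a log2 fold change of 0.00 with median-of-ratios scaling (adjusted p = 0.96), and 0.24 once GC content was corrected for. Rpl5 was at 106, 112, 115 and 113 TPM with LPS and at 98.2, 93, 99.5 and 105 TPM with UDCA (log2 fold change -0.17, adjusted p = 0.007 by limma). It was not called with quantile normalization (-0.10, adjusted p = 0.09), its value was -0.28 with the GC correction, and its direction turned when its copies were added.

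Most paralogue forms under the symbol rule were listed at low levels or at 0, Rps27l being an exception. Rpl3l, a form of Rpl3 made in striated muscle, was the member just above the minimum, with a mean of 1.27 TPM over all libraries, values of 0.69 to 1.46 TPM with LPS and 1.1 to 1.86 TPM with UDCA, and no call (log2 fold change 0.27, 95% interval -0.08 to 0.63), though it was called higher with the GC correction (0.46, adjusted p = 0.024). Just below it came Rpl6l at 0.265 TPM, then Rpl39l at 0.0538 and Rps4l at 0.0125 TPM, while Rpl10l and Rpl32l were listed at 0 in all libraries. Of the partners, Rpl3 had 811.2 ± 10.8 and 797.1 ± 8.86 TPM, Rpl39 875.6 ± 20.5 and 838.3 ± 41.3 TPM, and Rps4x 2189 ± 176 and 2124 ± 44 TPM. None of these 3 was called, though Rps4x was called lower without LPS replicate 1 (log2 fold change -0.10, adjusted p = 0.0093). Rpl3 was called lower with median-of-ratios scaling (-0.10, adjusted p = 0.02) but higher with quantile normalization (0.15, adjusted p = 0.00042) and the GC correction (0.06, adjusted p = 0.035). Copies of Rpl3, described below, held 68.3% of its merged TPM. With them added Rpl3 had a log2 fold change of 0.0042 (adjusted p = 0.87 by limma). Rpl39 was called lower after median-of-ratios scaling (-0.14, adjusted p = 0.023) and the GC correction (-0.09, adjusted p = 0.048). Among the members not called, leaving out Rpl3l, the 95% intervals stayed between -0.22 and 0.30, both limits set by Rps18.

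The levels of several members could not be read from their own rows. Ribosomal protein genes have many processed pseudogenes, copies of the spliced mRNA inserted elsewhere in the genome, and reads from the gene match them. In the GENCODE M21 annotation, 297 other genes shared at least 50% of their 31-base words with a member, 278 of them annotated as processed pseudogenes, and 65 of the 78 members had at least 1 such copy. Of the copies, 44 were listed at a mean of at least 100 TPM, and in 21 members the copies summed to more TPM than the gene. Rps2 was listed at a mean of 61.97 TPM and its copies at 4516 TPM, 98.6% of the total, mostly under Rps2-ps10. Rps18 stood at 103.6 TPM against 4850 TPM in copies, Rpl12 at 98.26 against 4229 TPM, and Rpl5 at 105.2 against 1801 TPM. These genes, apart from Rpl12 and Rpl5, were chosen after their values were seen. As listed, the members other than Rpl3l ran from 61.97 TPM for Rps2 to 11339.6 TPM for Rplp1, with 6 under 500 TPM and an SD of 1.38 of the log2 means. With the TPM of copies added to the gene (a setting chosen after seeing the data), 0 were under 500 TPM, the lowest was Rpl39 at 882.2 TPM, and the SD was 0.684.

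**Figure D3:**
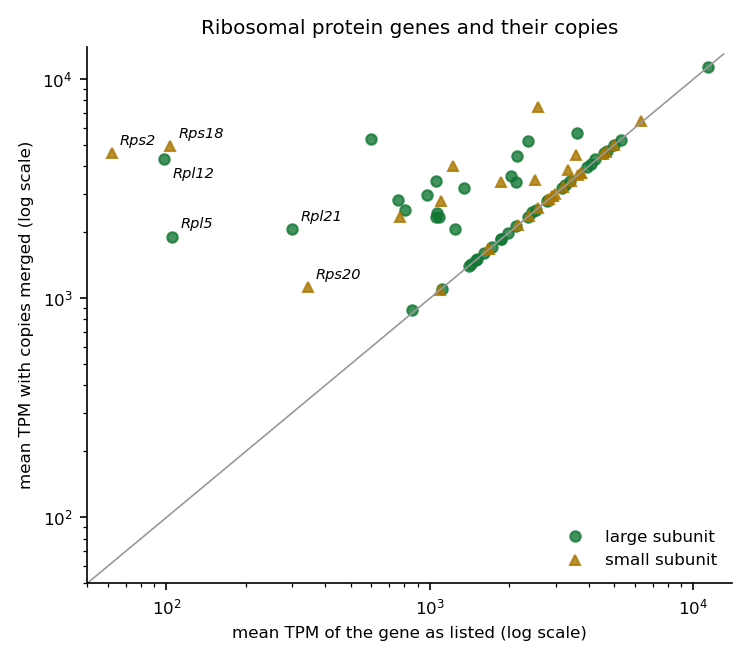
Mean TPM over 8 libraries of each member other than Rpl3l as listed (x axis, log scale) and with its copies merged (y axis, log scale), large subunit as circles and small subunit as triangles. Points on the line gained nothing, and the 6 named genes, all under 500 TPM as listed, moved above 882.2 TPM.

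Merging the copies changed the call of 7 members, Rpl12, Rpl26, Rpl29, Rpl5, Rps13, Rps18 and Rps20. Rpl12 with its copies had 4327 ± 157 TPM with LPS and 4328 ± 129 TPM with UDCA, and the log2 fold change came to 0.00 (adjusted p = 0.99 by limma). Rpl5 with its copies rose from 1821 ± 98.7 to 1992 ± 75.9 TPM (log2 fold change 0.13, adjusted p = 0.023 by limma). Rps18 with its copies fell from 5284 ± 212 to 4623 ± 140 TPM (log2 fold change -0.19, adjusted p = 0.00077 by limma), where the gene alone gave 0.04 with an adjusted p of 0.76. Rps2 with its copies was at 5277, 5379, 5342 and 5169 TPM with LPS and at 3936, 3844, 3865 and 3815 TPM with UDCA. This was the lowest log2 fold change of any member after merging, -0.45 (SE 0.022, adjusted p = 1.6e-07 by limma), against -0.28 for the gene alone. Over the family, 17 rose and 33 fell after merging, a called share of 64.1% where 72.9% of all genes were called (40.5% higher and 32.4% lower).

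As a family the members took overlapping shares of the transcripts in both groups. The members summed to 19.21%, 20.03%, 20.21% and 19.81% of listed TPM in LPS replicates 1 to 4 and to 19.6%, 19.27%, 19.19% and 19.14% in UDCA replicates 1 to 4. The groups overlapped through LPS replicate 1, the lowest of its group, and the means were 19.81% ± 0.434 and 19.3% ± 0.208 (SD, n = 4). With the 50 most abundant other genes left out of the total, the means were 25.51% ± 0.617 and 25.62% ± 0.242, so the sign of the difference turned from -0.515 to 0.107 percentage points. With copies merged the share was 26.39% ± 0.609 and 25.65% ± 0.251, also overlapping. No test was made of these sums, since they are scores over chosen members.

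The subunits were compared by their counts, medians and sums. In the large subunit 11 rose, 16 fell and 20 were not called, with a median log2 fold change of -0.03, and in the small subunit 6 rose, 15 fell and 10 were not called, with a median of -0.08. The called shares were 57.4% and 67.7%, where 72.5% of all genes tested were called, 40.2% higher and 32.3% lower. With quantile normalization both medians turned positive, 0.07 and 0.01, and with the GC correction they were 0.06 and -0.01. The median within each library, relative to the LPS mean on the log2 scale, did not overlap between groups for small subunit members (means of -0.0014 ± 0.0395 and -0.1033 ± 0.0241) but overlapped for large subunit members (-0.0002 ± 0.0244 and -0.0329 ± 0.0214). The ratio of summed large to summed small subunit TPM was 1.341, 1.32, 1.299 and 1.3 with LPS and 1.327, 1.332, 1.314 and 1.311 with UDCA, and the groups overlapped. With copies merged the same ratio was 1.343, 1.336, 1.323 and 1.327 with LPS and 1.39, 1.397, 1.385 and 1.384 with UDCA, so the groups no longer overlapped, and the means were 1.332 ± 0.00928 and 1.389 ± 0.0057. Without Rps2, the member that fell most after merging, the merged ratio was 1.399 ± 0.0115 and 1.443 ± 0.00586, again without overlap. The groups were also apart without the 5 most abundant members (1.2 ± 0.0131 and 1.246 ± 0.00244), but overlapped in the ratio of geometric means (0.756 ± 0.0107 and 0.7702 ± 0.00729).

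**Figure D4:**
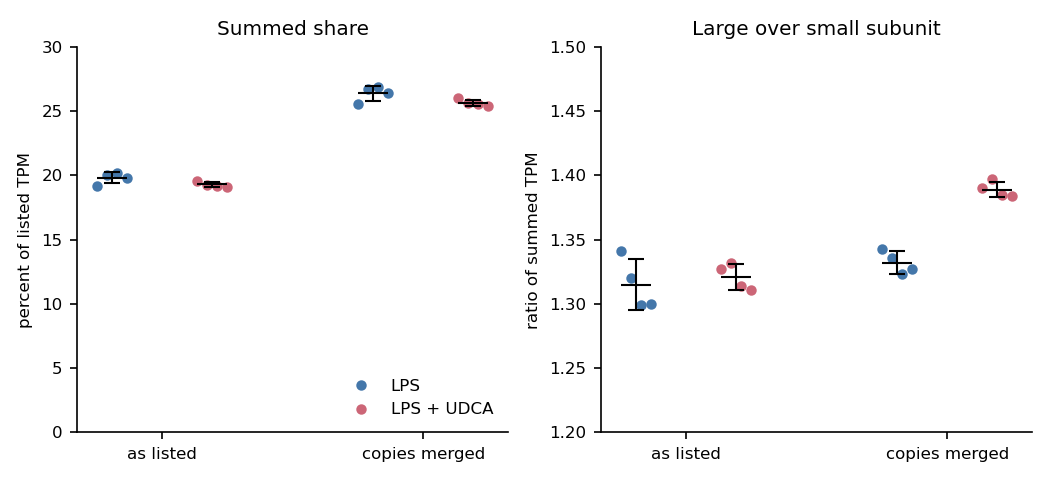
Summed share of listed TPM (left, axis from 0) and ratio of summed large to small subunit TPM (right, axis from 1.2) in each library, as listed and with copies merged, with mean and SD of 4 libraries per group. Both groups overlap on the left, where the difference of -0.515 points as listed becomes 0.107 without the 50 most abundant other genes, and on the right they overlap as listed and do not overlap with copies merged.

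Fold changes were lower in members whose transcripts had a higher GC content. Across the 78 members, the log2 fold change correlated with transcript GC content by Spearman -0.48 and Pearson -0.46, as a description over genes that share libraries. The Spearman value was -0.63 over the 31 small subunit and -0.43 over the 47 large subunit members, -0.26 over the 78 mitochondrial ribosomal proteins and -0.27 over 11765 genes. Of the 26 members of lowest GC content (41.3% to 49.8%), 12 rose and 4 fell, while of the 26 of highest (54.6% to 60.8%), 2 rose and 16 fell. Over all genes tested 40.2% were called higher and 32.3% lower, and calls of all genes in these GC ranges were not counted. Rps27l, with 43.1%, and Rps19, with 58.6%, lie toward the ends of the GC range of the members. Single libraries differed within their own group along the same axis. Against the other 3 libraries of the group, the Spearman correlation over the members was 0.49 for LPS replicate 1, -0.42 for LPS replicate 4, 0.47 for UDCA replicate 2 and -0.50 for UDCA replicate 4. The part of base composition in the group difference was not tested beyond the corrected fit. In that fit the correlation over the members was 0.13 by Spearman and 0.23 by Pearson. With transcript length the Spearman value over the members was -0.01, and with mean TPM it was -0.13.

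**Figure D5:**
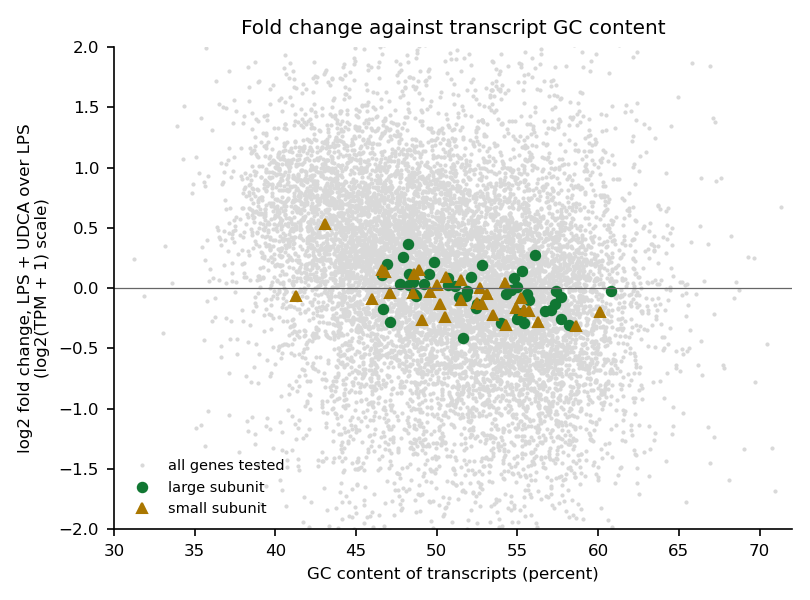
Log2 fold change, LPS + UDCA over LPS, against the GC content of transcripts in percent, for large subunit members (circles), small subunit members (triangles) and all genes tested (grey, 278 lying outside the axes). Members of lower GC content lie higher (Spearman -0.48 over 78 members, -0.27 over 11765 genes), and their median turns from -0.05 to 0.01 when the GC trend is removed.

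Ribosomal proteins that the symbol rule left out were counted apart. Of 8, 1 rose and 4 fell (62.5% called, against 72.5% of all genes). Rpl36al, a retained copy of the Rpl36a coding sequence, rose from 833.6 ± 44.8 to 1063 ± 30.3 TPM (log2 fold change 0.35, adjusted p = 5.7e-05 by limma). Rack1, the small subunit scaffold for signalling proteins, fell from 2633 ± 36.6 to 2180 ± 67.3 TPM (log2 fold change -0.27). Fau, a ubiquitin-like protein fused to a small subunit protein, fell from 3552 ± 124 to 3003 ± 60.3 TPM (log2 fold change -0.24, with a range of -0.32 to -0.03 over the alternatives), and Rps3a1 fell from 2181 ± 152 to 1894 ± 48 TPM. Rpl7l1 fell from 87.67 ± 4.97 to 70.97 ± 3.17 TPM. Rpl22l1 and Rps27rt were among those not called, with log2 fold changes of 0.22 and 0.25. The spread of both was wide, with standard errors of 0.16 and 0.17, and Rpl22l1 ran from -0.18 to 0.37 over the alternatives.

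Genes that make ribosomes were called at shares to be read beside 72.5% of all genes tested, 40.2% higher and 32.3% lower. Of 32 ribosome assembly factors, 12 rose and 10 fell (68.8% called, median log2 fold change 0.02). Nmd3, which exports the large subunit, rose from 28.96 ± 2.03 to 61.25 ± 9.06 TPM (log2 fold change 1.05, adjusted p = 1.2e-05 by limma), and Bop1, needed for large subunit RNA processing, fell from 115.2 ± 4.04 to 57.36 ± 1.99 TPM (log2 fold change -0.99, adjusted p = 6.7e-08 by limma). Of 11 genes of RNA polymerase I and its factors, 4 rose and 5 fell (81.8% called). The lowest was the polymerase subunit Polr1b (log2 fold change -0.99) and the highest the initiation factor subunit Taf1b (0.74). Of 6 chaperones and importers of ribosomal proteins, 1 rose and 2 fell (50% called), or 4 fell with median-of-ratios scaling or the GC correction, with Ipo7 highest (1.07) and the Rpl3 chaperone Grwd1 lowest (-0.68). Of 17 other mRNAs with a TOP tract, 7 rose and 7 fell (82.4% called). Npm1, the nucleolar histone chaperone, was highest (0.86), and Vim, the intermediate filament protein vimentin, lowest (-0.94).

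Among 14 regulators of mTORC1 and TOP mRNAs, 10 rose and 1 fell, 71.4% and 7.14% against 40.2% and 32.3% of all genes, and 2 fell with median-of-ratios scaling or quantile normalization (median log2 fold change 0.35, all genes 0.08). Sesn2, a stress-induced inhibitor of mTORC1, was at 54.1, 51.5, 47.3 and 50.1 TPM with LPS and at 142, 147, 137 and 132 TPM with UDCA (log2 fold change 1.44, adjusted p = 2.8e-08 by limma). Tsc2, another inhibitor, fell from 25.04 ± 3.22 to 16.54 ± 2.15 TPM (log2 fold change -0.57, adjusted p = 0.0013 by limma). The list mixes activators and inhibitors of mTORC1, so its counts give no direction for the pathway. Of 8 genes of MYC and the 5S RNP to p53 axis, 5 rose and 3 fell, 62.5% and 37.5%. Myc, which drives ribosomal protein transcription, was at 69.8, 70.8, 66.5 and 70.6 TPM with LPS and at 27.5, 29.9, 28.02 and 27.0 TPM with UDCA (log2 fold change -1.27, adjusted p = 2.9e-08 by limma). Mdm2, the ubiquitin ligase of p53 and itself a p53 target, rose from 164.5 ± 9.62 to 347.2 ± 30.1 TPM (log2 fold change 1.07, adjusted p = 8e-07 by limma). Its relative Mdm4 was highest of the list, from 8.405 ± 2.04 to 20.13 ± 4.32 TPM (log2 fold change 1.17). In the same libraries the median ribosomal protein mRNA differed by -0.05, or by -0.13 to 0.04 over the scalings above. A link between that median and Myc or the other genes of these lists was not tested. The 78 mitochondrial ribosomal proteins, with 20 higher and 36 lower (71.8% called), ran down to Mrps11 (44.99 ± 4.83 and 22.69 ± 2.07 TPM, log2 fold change -0.95).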

How the data were processed

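RNA was sequenced from 4 LPS and 4 LPS + UDCA libraries, grouped by the sample labels. No source used here says that the 4 came from separate cultures, so p-values measure the spread between these samples. The authors deposited TPM per gene to 2 decimals, a unit read from the values. The submitters' processing notes name Bowtie 0.12.2 and GRCm38 (mm10), and the counting program is not given in the sources used here. Reads that match several genes can be split between them.

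With limma 3.58.1 (R 4.3.3), log2(TPM + 1) was fitted, with a mean-variance trend, for genes whose mean reached 1 TPM, and calls used an FDR under 0.05, with a fold change of 2 counted as well. The procedure was tested on simulated data. Fold changes are on the log2(TPM + 1) scale, which understates low genes.

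Members, lists and the rule for named genes were chosen with earlier results of these data known. The rule took the 5 highest and 5 lowest called members and the 3 most abundant per subunit, all as listed. It also took the stalk, 5S RNP, paralogue and extraribosomal members, and the called extremes of each list. A few genes are counted but not reported here by name. Copies and GC content came from GENCODE M21, start windows from RefSeq (GRCm38.p6). The GC correction removed a cubic trend on transcript GC content per library, fitted to each gene's deviation from its mean log2(TPM + 1) over all libraries. A difference between the groups that goes with GC content is part of that trend and is removed with it. Python 3.11.15 with pandas 2.3.3 and matplotlib 3.10.9 made tables and plots.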

Additional observations from a re-analysis of the deposited data

Results flagged for a closer look

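Of 64 sets of 4 libraries examined, 3 held a library far from the other 3, where about 1 in 20, or 3.2, are expected by chance. Rps27l in UDCA replicate 3 was the lowest of its group at 1255.5 TPM, still above every LPS library. Rps15 in LPS replicate 4 was the lowest of its group at 4890.0 TPM, still above every UDCA library. Rpl11 in UDCA replicate 2 was the lowest of its group at 1723.1 TPM, still above every LPS library.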

How the results depend on the processing

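Counts of members called higher, 17 with TPM as deposited, were 11 with all genes above 0 TPM tested, 4 with median-of-ratios scaling, 27 with quantile normalization, 9 without a mean-variance trend, 28 with the GC correction and 26 with the GC correction and the replicate number as a block. Members called lower, 31, were 18 and 14 in the last 2. The share of all genes called was not counted with all genes above 0 TPM, without the trend, with a block or with a library left out. Member counts in those settings therefore have no background beside them. No setting put a member past a fold change of 2. The median log2 fold change of the members (-0.05) was -0.13 with median-of-ratios scaling, 0.0428 with quantile normalization and 0.0134 with the GC correction, blocked or not. For the large subunit (-0.03) these were -0.10, 0.0662 and 0.0604, and 0.0042 with copies merged. For the small subunit (-0.08) they were -0.16, 0.0143 and -0.0066, and -0.12 with copies merged. For mitochondrial ribosomal proteins (-0.13) they were -0.20, -0.0857 and -0.0875. The difference in share (-0.515 points) was 0.107 without the 50 most abundant other genes in the total. The difference in the large to small subunit ratio (0.00568) was 0.0367 with named pseudogenes added, 0.0571 with copies merged, 0.0441 with copies merged and no Rps2, and 0.0464 without the 5 most abundant members.

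Of the named members, Rpl12 had a log2 fold change of 0.0005 and Rpl5 of 0.13 with copies merged. Rplp1 had 0.0263 with quantile normalization and 0.0677 with the GC correction, and Rps15 had 0.0094 with the GC correction, blocked or not. The cause of these changes was not tested.

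With each library left out in turn, 13 to 17 members were higher and 30 to 36 lower, with 13 and 36 without LPS replicate 1. The median ran from -0.08 to -0.04 for members, -0.05 to -0.02 for the large subunit, -0.10 to -0.06 for the small subunit and -0.14 to -0.11 for mitochondrial ribosomal proteins. The share difference ran from -0.717 to -0.384 points and the ratio difference from 0.000421 to 0.0144.

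The groups share replicate numbers. Deviations of same-numbered libraries correlated by -0.035 to 0.15 (4 pairs) and of others by -0.14 to 0.16 (12 pairs), so the numbers were not taken to pair the samples. With the replicate block, 16 members were higher and 31 lower. Depth is unknown, so counting error could not be separated from the spread between 4 libraries.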
